A study of Mus musculus with 40 samples.

Results

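The comparison described here set 5 castrated male mice that carried a placebo pellet (animals 24 to 28) against 5 males with intact testes (animals 8 to 12). These 10 arrays, chosen by the surgery and pellet in the labels, are part of 40 liver arrays in 8 groups of 5. All mice were C57BL/6J, an inbred laboratory strain, on chow with 4% fat. The castrated males lost their testes at 8 weeks of age, received the pellet at 12 weeks and were killed at 14 weeks after a 12 h fast. Intact males were killed at the same age and in the same fasted state. The labels do not say whether intact males had a sham operation or a pellet, so the loss of the testes, the operation and the pellet cannot be told apart. Other groups used below were castrated males with a pellet of 5 mg dihydrotestosterone (DHT) or 0.5 mg estradiol, each made to release over 21 days, ovariectomized females with the same DHT, estradiol or placebo pellets, and intact females. Castrated males with a hormone and ovariectomized females followed the same schedule, with surgery at 8, the pellet at 12 and death at 14 weeks of age, and intact females were killed at 14 weeks, all after the same fast.

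Testosterone from the testes shapes the rodent liver mostly through the pituitary. Male mice release growth hormone in pulses with quiet intervals, females release it more evenly, and the liver reads the pattern through the growth hormone receptor, the kinase JAK2 and the transcription factor STAT5B. Pulses favour genes such as Hsd3b5, Elovl3 and Cyp7b1, which are known as male-biased, and restrain genes such as Cyp2b9, Cyp2b13 and A1bg, which are known as female-biased. DHT is an androgen that aromatase cannot turn into an estrogen, and estradiol is the main ovarian estrogen.

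Each value is the log2 ratio of a liver to 1 pool of liver RNA from 40 mice, so a value of 1 is a doubling over the pool, and each difference is the mean of the castrated males minus the mean of the intact males, with its standard error (SE). A probe or gene passed where limma, a linear model fitted to all 23574 probes and 40 arrays, gave a Benjamini-Hochberg adjusted p under 0.05. Such an adjusted p holds for the whole table and not for a list. A gene with several probes is given by the probe with the largest spread over the 40 arrays.

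The stretch of 250 bases before the start of a few strongly changed genes is shown to give the letters behind the near-identical pair Cyp2b13 and Cyp2b9, and the 4 promoters, among those of the 40 genes of largest change, that hold a STAT-type motif. Sequences are from RefSeq on GRCm38.p6, read 5′ to 3′ on the gene's strand. Capitals mark TTCNNNGAA, the spaced palindrome that STAT5 binds, and ATCAAT, searched on both strands so that it can read ATTGAT, letters found in sites of the factors HNF6 and CUX2.
Cyp2b13, chr7:26061245-26061494, plus strand: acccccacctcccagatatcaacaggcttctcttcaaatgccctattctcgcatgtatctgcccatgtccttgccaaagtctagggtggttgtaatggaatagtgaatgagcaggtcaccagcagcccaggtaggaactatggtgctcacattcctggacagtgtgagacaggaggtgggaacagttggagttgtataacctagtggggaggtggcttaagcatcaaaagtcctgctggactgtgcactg
Cyp2b9, chr7:26173159-26173408, plus strand: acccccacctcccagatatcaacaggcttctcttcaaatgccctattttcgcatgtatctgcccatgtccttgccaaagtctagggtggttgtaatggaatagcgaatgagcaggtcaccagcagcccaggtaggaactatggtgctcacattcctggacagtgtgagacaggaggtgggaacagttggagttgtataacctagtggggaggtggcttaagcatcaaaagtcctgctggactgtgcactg
Slc22a26, chr19:7802668-7802917, minus strand: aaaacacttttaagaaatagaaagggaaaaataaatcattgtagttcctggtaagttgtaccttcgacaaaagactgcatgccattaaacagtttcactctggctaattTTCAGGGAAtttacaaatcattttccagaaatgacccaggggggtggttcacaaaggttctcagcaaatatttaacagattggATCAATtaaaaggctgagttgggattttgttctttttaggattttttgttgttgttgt
Sult3a1, chr10:33857472-33857721, plus strand: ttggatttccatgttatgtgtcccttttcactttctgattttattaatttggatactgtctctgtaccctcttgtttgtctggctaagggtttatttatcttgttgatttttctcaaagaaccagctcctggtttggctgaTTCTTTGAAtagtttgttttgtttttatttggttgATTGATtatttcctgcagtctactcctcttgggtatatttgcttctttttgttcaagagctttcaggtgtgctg
A1bg, chr15:60921271-60921520, minus strand: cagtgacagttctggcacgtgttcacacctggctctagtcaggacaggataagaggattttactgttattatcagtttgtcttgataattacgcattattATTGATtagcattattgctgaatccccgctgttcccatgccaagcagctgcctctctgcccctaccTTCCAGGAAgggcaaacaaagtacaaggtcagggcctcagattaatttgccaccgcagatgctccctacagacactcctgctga
Moxd1, chr10:24223267-24223516, plus strand: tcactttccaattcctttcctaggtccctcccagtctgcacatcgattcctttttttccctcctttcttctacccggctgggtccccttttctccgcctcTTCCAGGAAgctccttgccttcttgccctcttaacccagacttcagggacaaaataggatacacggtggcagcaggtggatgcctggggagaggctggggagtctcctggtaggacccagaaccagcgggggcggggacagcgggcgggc
The Cyp2b13 and Cyp2b9 stretches were identical at 248 of 250 bases, or 99.2%. Neither motif was found in them. TTCNNNGAA began at -141 relative to the start in Slc22a26, at -109 in Sult3a1, at -84 in A1bg and at -150 in Moxd1, and ATCAAT was at -58, -74 and -150 in the first 3 of these. The 40 genes of largest change named below include 31 with a promoter in the table, of which 4 held TTCNNNGAA and 3 held ATCAAT. Over 32851 promoters of the same length, 7.02% held TTCNNNGAA and 6.72% held ATCAAT. The partial site AGAACA of the androgen and glucocorticoid receptors was in 5 of the 31, against 16.1% of all promoters, and CCAAT in 14 of the 31, against 33.8%. A match is a run of letters and was not tested as a binding site.

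Both groups were male, and the Y-linked Eif2s3y, a translation factor subunit, and Kdm5d, a histone demethylase, differed by -0.21 and -0.32, and 0 of the 8 sex chromosome genes measured passed in limma, with 1 at an unadjusted p under 0.05. Values are ratios to a liver pool, so they do not tell which cell type markers are absent. Of 8 hepatocyte markers 1 passed, Serpina1a (-0.35 ± 0.08), where 12.5% of all named genes passed. The mean of these markers per animal ran from -0.10 to 0.12 in castrated and from -0.03 to 0.38 in intact males. Mean ratios of 13 T and B cell markers lay between 0.00 and 0.13 in castrated males and between -0.17 and -0.03 in intact males, with no overlap. Endothelial, stellate cell, Kupffer cell, bile duct, neutrophil, red cell, gut, fat and testis markers overlapped between the groups. In bulk liver, fewer cells of a type and less RNA per cell cannot be told apart, and the part of any cell type in the results was not tested. The interquartile range of the deposited log10 ratios ran from 0.0546 to 0.0977 in castrated males and from 0.0636 to 0.102 in intact males, widest in animals 26 and 9. Intact male 11 correlated least with its own group, at a mean r of 0.255, against 0.337 to 0.514 for the other 4 intact males and 0.214 to 0.403 in the castrated group.

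Castration with placebo went with a change in 2856 of 23574 probes (12.1%), 1225 of them higher (5.2%) and 1631 lower (6.92%). Among 10843 named genes 1350 passed (12.5%), 559 higher (5.16%) and 791 lower (7.3%), while the median difference over all of them was 0.02. Most called changes were small. A change of at least 2-fold was read for 43 genes that rose and 70 that fell, and of at least 8-fold for 8 that rose and 6 that fell. The median SD within a group was 0.13 in castrated males and 0.15 in intact males. Groups of 5 did not overlap for 1945 probes (8.25%), of which 1580 also passed. Without animals 9 and 26 there were 2181 calls, without animal 11 there were 3687 and without animals 9 and 11 there were 4754. A total of 449 of the 1350 genes, 126 higher and 323 lower, kept their call under each of 19 other ways to fit the data.

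**Figure D1:**
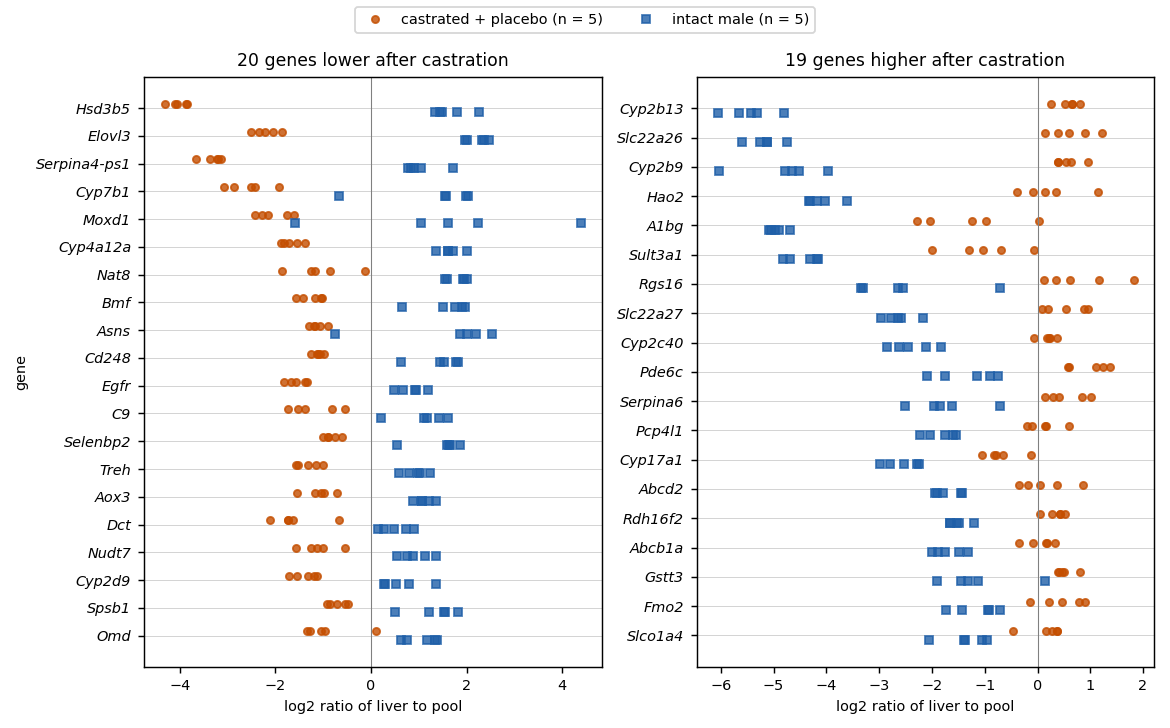
Log2 ratio of liver to pool (x axis) in each castrated male with placebo (orange circles) and each intact male (blue squares), for the 20 genes of largest fall and 19 of the 20 of largest rise among those that passed and whose groups did not overlap (rows). Castrated males form tight clusters in most rows, and 1 intact male lies close to them for Moxd1, at -1.59, and Asns, at -0.75.

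Genes of steroid metabolism changed in both directions: of 25 measured, 7 fell, 2 rose and 16 did not pass. Of all named genes 7.3% fell and 5.16% rose. The list had a median of -0.18 against 0.02 over all genes. Hsd3b5, which in the mouse reduces 3-ketosteroids, was the gene of largest fall. Hsd3b5 lay at -4.10, -3.84, -4.06, -3.88 and -4.32 in the castrated males, against 1.34, 1.44, 1.80, 2.26 and 1.48 in the intact males. Every castrated male lay more than 5 units below every intact male, a mean difference of -5.70 ± 0.73 (adjusted p = 6.78e-07). Another Hsd3b5 probe read -0.10, so the size belongs to 1 probe. Cyp7b1, the oxysterol hydroxylase that also acts on androgen metabolites, differed by -3.85 ± 0.68. Cyp7b1 lay at -3.07, -2.51, -2.86, -1.92 and -2.44 in the castrated males, against 2.02, 1.55, 1.57, -0.66 and 1.99 in the intact males. The groups did not overlap, but animal 11 stood between the castrated males and the other 4 intact males. Cyp2d9, a testosterone 16-alpha hydroxylase, fell by 2.03 ± 0.42, Ugt2b5, which conjugates steroids to glucuronic acid, by 1.70 ± 0.27 and Akr1c6, a 17-beta hydroxysteroid dehydrogenase, by 0.78 ± 0.16. Further Ugt2b5 probes read -0.57 and -0.03. Cyp17a1, the hydroxylase and lyase on the route to androgens, moved the other way. Cyp17a1 lay at -0.12, -0.78, -0.66, -0.82 and -1.06 in the castrated males, against -2.28, -2.24, -2.79, -2.99 and -2.53 in the intact males. All 5 castrated males were above all 5 intact males, by 1.88 ± 0.44 (adjusted p = 0.00345). Serpina6, the plasma globulin that carries glucocorticoids, rose by 2.27 ± 0.29, with castrated males between 0.13 and 1.02 and intact males between -2.51 and -0.70.

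Cytochrome P450 genes of families 1 to 3, which handle drugs and steroids, split: 8 of 35 rose and 5 fell. The shares over all named genes were 5.16% and 7.3%. Cyp2b13 lay at 0.64, 0.65, 0.81, 0.26 and 0.51 in the castrated males, against -5.32, -5.66, -5.43, -4.80 and -6.06 in the intact males. Cyp2b9 lay at 0.55, 0.63, 0.95, 0.38 and 0.38 in the castrated males, against -4.66, -4.79, -4.52, -3.97 and -6.03 in the intact males. In both genes castrated males sat slightly above the pool and intact males far below it, at differences of 6.03 ± 0.72 and 5.37 ± 0.61. Second probes read 0.80 and 0.34, which also passed, and the arrays' separation of such close genes was not tested. The epoxygenase family members Cyp2c40 (2.56 ± 0.34, other probes at 1.55, 1.32 and 0.06), Cyp2c37 (1.15 ± 0.19) and Cyp2c38 (0.73 ± 0.13) rose too. Of 11 fatty acid hydroxylases of family 4, 5 fell and 0 rose. Cyp4a12a lay at -1.39, -1.72, -1.54, -1.89 and -1.82 in the castrated males, against 1.36, 2.01, 1.62, 1.72 and 1.62 in the intact males. The groups were tight and more than 2 units apart, with a difference of -3.34 ± 0.35 (adjusted p = 1.67e-08). Its close relative Cyp4a12b fell by 0.84 ± 0.10, and Cyp4f13, Cyp4f15 and Cyp4f17 by 0.35, 0.43 and 0.19. Cyp4f15 lost its call under 8 alternatives and Cyp4f17 under 9.

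Enzymes that conjugate or oxidise foreign compounds also split, where 5.16% of all named genes rose and 7.3% fell. Sulfotransferases rose in 4 of 13 cases and fell in 1: Sult3a1 (3.41 ± 0.64), Sult1a1 (1.40 ± 0.26), Sult1c2 (1.17 ± 0.19) and Sult2b1 (1.02 ± 0.17) were higher and Sult5a1 (-0.65 ± 0.19) lower. Another Sult3a1 probe read 0.23 and did not pass. Sult5a1 lost its call under 5 alternatives. Glutathione genes passed in 9 of 19 cases, with Gstt3 (1.64 ± 0.30), Gstm2 (0.81 ± 0.18) and Gsto1 (0.31 ± 0.09), transferases, higher, and Gstp1 (-1.04 ± 0.19) and both subunits of the enzyme for the first step of glutathione synthesis, Gclc (-0.65 ± 0.17) and Gclm (-0.46 ± 0.08), lower. Of the 5 that rose 0 kept the call under every alternative, and of the 4 that fell Gclc and Gclm did. Gsto1 lost its call under 7 alternatives. Carboxylesterases, which cleave esters and amides, passed in 5 of 8 cases: Ces4a (-1.89), Ces3b (-1.45) and Ces3a (-1.31) fell, while Ces1c (1.06) and Ces1g (0.76) rose. Ces1g lost its call under 1 alternative. Of 3 flavin monooxygenases Fmo2 (1.59 ± 0.38) and Fmo1 (0.79 ± 0.17) rose, and each lost its call under 1 alternative. The molybdenum-containing aldehyde oxidases Aox3 (-2.20 ± 0.29) and Aox1 (-1.13 ± 0.18) fell together with the alcohol dehydrogenase gene Adh4 (-1.08 ± 0.21), and Aldh3b1 (0.90 ± 0.16), a dehydrogenase of lipid aldehydes, rose. Nat8, an acetyltransferase that completes mercapturic acids, fell. Nat8 lay at -1.86, -0.85, -1.18, -1.26 and -0.12 in the castrated males, against 1.55, 1.60, 1.92, 1.94 and 2.01 in the intact males. Castrated animal 28 lay near the pool, still below every intact male, and the difference was -2.86 ± 0.34 (adjusted p = 1.41e-07). Castrated males stayed above intact females for this gene, which averaged -2.83, by 1.78 (adjusted p = 0.00686). Selenbp2, a selenium-binding protein gene, fell by 2.29 ± 0.19, and a second probe by 2.17.

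Among 31 transporters of organic anions and cations 6 rose and 8 fell, against 5.16% and 7.3% of all named genes. Slc22a26 lay at 0.59, 0.13, 0.39, 1.22 and 0.89 in the castrated males, against -5.12, -5.26, -5.59, -4.75 and -5.12 in the intact males. Slc22a26, an organic anion transporter, was thus above the pool in every castrated male and far below it in every intact male, for 5.81 ± 0.56. Slc22a27 lay at 0.20, 0.54, 0.09, 0.95 and 0.89 in the castrated males, against -2.77, -2.59, -2.97, -2.16 and -2.64 in the intact males. Its relative Slc22a27 differed by 3.16 ± 0.37 with the same separation. Abcb1a, which codes for P-glycoprotein, the drug efflux pump, rose by 1.74 ± 0.28, whereas its paralog Abcb1b fell by 0.50 ± 0.09 and the efflux pump gene Abcg2 by 1.52 ± 0.23. The uptake carrier gene Slco1a4 (1.51 ± 0.32) rose and its relative Slco1a1 (-1.89 ± 0.27) fell, and Slc10a1 (0.49 ± 0.14), a bile acid carrier gene, rose. Other Slco1a4 probes read 0.12 and -0.14.

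In lipid metabolism a few genes changed strongly and most did not pass. For the counts below, the shares over all named genes were 5.16% higher and 7.3% lower. Elovl3 lay at -2.34, -1.86, -2.51, -2.05 and -2.21 in the castrated males, against 1.96, 2.33, 2.36, 2.00 and 2.46 in the intact males. Elovl3, an elongase of very long chain fatty acids, showed the second largest fall, -4.42 ± 0.41 (adjusted p = 1.45e-09), and the groups lay more than 3 units apart. Hao2, a peroxisomal oxidase of long chain hydroxy acids, rose. Hao2 lay at -0.40, 0.36, -0.09, 0.14 and 1.15 in the castrated males, against -4.32, -4.33, -4.18, -3.60 and -4.03 in the intact males. Groups were again far apart, by 4.32 ± 0.61. The peroxisome list, at 3 higher and 4 lower of 22, also held Abcd2 (1.85 ± 0.30), a transporter of very long chain acyl groups, higher, and Hao1 (-1.29 ± 0.24), a glycolate oxidase, Cat (-0.90 ± 0.20), catalase, and Scp2 (-0.58 ± 0.15), a sterol carrier and thiolase, lower. Nudt7, which cleaves coenzyme A in peroxisomes, fell by 2.04 ± 0.31. Of 22 lipid droplet and triglyceride genes 3 rose and 3 fell. Their median was -0.17, and differences ran from -1.71 to 1.24. At an unadjusted p under 0.05 in limma, 6 were lower and 3 higher. Those that rose were Vldlr (1.17 ± 0.17), the very low density lipoprotein receptor, Cd36 (1.24 ± 0.28), a fatty acid carrier, and Angptl8 (0.98 ± 0.28), an inhibitor of lipoprotein lipase activity. Vldlr alone of these kept the call under every alternative, and 0 of the 3 that fell did. Rdh16f2 (1.85 ± 0.22) and Rdh16 (0.79 ± 0.21), retinol dehydrogenases, rose too. Treh, which splits the sugar trehalose, fell by 2.24 ± 0.31, and Alas2, a heme synthesis enzyme mostly of red cells, by 1.41 ± 0.24, while the heme oxygenase gene Hmox1 rose by 1.21 ± 0.30.

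Signalling genes of the growth hormone axis mostly did not pass: 3 of 32 rose and 3 fell, with a median of 0.00. That was near the background of 5.16% higher and 7.3% lower over all named genes. Cux2, a repressor known as a female-biased factor of the mouse liver, rose. Cux2 lay at 0.34, 0.18, -0.26, 0.52 and 0.00 in the castrated males, against -1.05, -1.15, -1.24, -0.84 and -0.63 in the intact males. Castrated males were all above intact males, at 1.14 ± 0.31 (adjusted p = 0.0124). Tox (0.83 ± 0.23), a chromatin factor, and Igfbp3 (0.16 ± 0.05), a carrier of insulin-like growth factors, rose. Foxa1 (-0.79 ± 0.13), a pioneer factor, and Irs2 (-1.07 ± 0.30), an adaptor of the insulin receptor, fell. Another Irs2 probe read -0.11. Igfbp3 lost its call under 11 alternatives, Irs2 under 5 and Tox under 3. Egfr, the epidermal growth factor receptor, had the largest change of the list. Egfr lay at -1.34, -1.56, -1.67, -1.38 and -1.82 in the castrated males, against 0.95, 0.68, 0.93, 0.49 and 1.20 in the intact males. No castrated male came within 1.5 units of an intact male, and the mean fell 5.3-fold, by 2.40 ± 0.29 (adjusted p = 2.62e-07). The growth hormone receptor gene Ghr stood at -0.49 ± 0.47 in castrated and 0.12 ± 0.15 in intact males (SD, n = 5 each), and its difference of -0.61 ± 0.23 did not pass (adjusted p = 0.0822). The estrogen receptor gene Esr1 (-0.04 ± 0.12) and the glucocorticoid receptor gene Nr3c1 (-0.11 ± 0.13) did not pass, and the androgen receptor gene was not analysed here. Of other nuclear receptors Rxrg (0.66 ± 0.11), Nr2f1 (0.46 ± 0.08), Pparg (0.31 ± 0.08) and Rara (0.29 ± 0.06) rose. Pparg lost its call under 3 alternatives.

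Among 21 complement genes 5 were lower and 0 higher: C9, the pore-forming last component, by 2.30 ± 0.32, C8a by 0.92 ± 0.19, Mbl1, a lectin that starts a complement pathway, by 0.51 ± 0.11, Clu, an inhibitor of the terminal complex, by 0.30 ± 0.10 and C6 by 0.24 ± 0.05. Of the 5, C9 and Mbl1 kept the call under every alternative. The shares over all named genes were 7.3% lower and 5.16% higher. C9 lay at -1.73, -1.37, -1.53, -0.54 and -0.82 in the castrated males, against 1.17, 1.43, 1.11, 0.21 and 1.61 in the intact males. The groups did not overlap, and animal 11 was the lowest of the intact males. Serpins, a family of mostly protease inhibitors, passed in 8 of 21 cases. The pseudogene Serpina4-ps1 had -3.21, -3.13, -3.37, -3.19 and -3.67 in castrated males, against 1.05, 0.78, 0.90, 1.72 and 0.85 in intact males, and fell by 4.37 ± 0.69 (adjusted p = 2.21e-05). Here animal 11 was the highest of its group. Serpina3f (-1.52 ± 0.24) fell as well, and Serpina7 (1.33 ± 0.25), the carrier of thyroid hormone, rose. Coagulation factor genes F7 (0.45), F3 (0.32), F10 (0.29) and F8 (0.22) rose, 4 of 18, with a list median of -0.05, and 0 of the 4 kept the call under every alternative. A1bg, a plasma glycoprotein gene, rose. A1bg lay at -0.98, -2.28, -1.24, 0.02 and -2.04 in the castrated males, against -4.98, -4.68, -5.05, -5.08 and -4.89 in the intact males. Castrated males were widely spread but all above intact males, by 3.63 ± 0.77, and the call was lost under quantile normalization, at 1.95 (adjusted p = 0.114; 0.000192 to 0.0279 under the other alternatives). Of 30 interferon response genes 6 were higher and 0 lower, with a median of 0.30; Gbp3 (0.81 ± 0.26), Ifit3 (0.78 ± 0.23) and Irf1 (0.71 ± 0.17) were among them, their groups overlapped, and 0 of the 6 kept the call under every alternative. Beside this, the T cell surface genes Cd2 (0.62 ± 0.16) and Cd3d (0.24 ± 0.07) rose, 2 of 13 T and B cell markers, and Cd3d lost its call under 10 alternatives.

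Collagen and matrix genes went both ways, 5 higher and 5 lower of 34. Cd248 and Omd, described next, are not on that list. Of all named genes 5.16% were higher and 7.3% lower. Cd248 lay at -0.99, -1.11, -1.07, -1.12 and -1.26 in the castrated males, against 1.77, 1.83, 1.53, 0.63 and 1.45 in the intact males. Cd248, a surface protein of pericytes and fibroblasts, was tightly clustered in castrated males and fell by 2.55 ± 0.32 (adjusted p = 3.87e-07). Omd, a small matrix proteoglycan gene, fell by 1.96 ± 0.35, Col27a1, a fibrillar collagen gene, by 1.10 ± 0.21, Timp1, an inhibitor of matrix proteases, by 0.86 ± 0.11 and Col6a2 by 0.53 ± 0.09. Mmp14 (0.61 ± 0.12), a membrane-bound matrix protease, and Timp3 (0.50 ± 0.11) rose. Of 15 stellate cell and fibroblast markers 4 rose and 3 fell, so that the list as a whole had a median of 0.21. Cdh1, the epithelial cadherin, read -1.07 on 1 probe and 0.27 on another, both past the threshold.

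Several of the largest changes lay outside these pathways. Bmf, a trigger of apoptosis, fell. Bmf lay at -1.03, -1.57, -1.04, -1.16 and -1.42 in the castrated males, against 1.96, 1.76, 1.50, 0.65 and 1.91 in the intact males. Asns, which makes asparagine, fell too. Asns lay at -1.19, -1.07, -1.18, -0.90 and -1.30 in the castrated males, against 2.20, 2.00, 1.87, -0.75 and 2.52 in the intact males. For Asns, animal 11 lay just above the highest castrated male and the other 4 intact males far higher, and the difference of -2.69 ± 0.41 was -3.27 without that animal. Moxd1, a copper monooxygenase related to dopamine beta-hydroxylase, had the widest spread. Moxd1 lay at -1.76, -2.28, -2.15, -1.61 and -2.42 in the castrated males, against 2.24, 1.62, 1.05, -1.59 and 4.39 in the intact males. Animal 11 lay next to the highest castrated male and animal 12 far above all others, and the difference of -3.59 ± 0.49 was -4.37 without animal 11 and -2.88 without animal 12. Rgs16, which shortens G protein signals, rose. Rgs16 lay at 0.35, 0.62, 1.82, 1.16 and 0.12 in the castrated males, against -2.64, -2.55, -3.30, -0.71 and -3.34 in the intact males. No castrated male was below 0.12 and no intact male above -0.71, a difference of 3.32 ± 0.47. The G protein genes Gnai1 (-0.80 ± 0.08) and Gnb2 (-0.41 ± 0.08) fell.

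Of the remaining genes of largest change, Dct, the dopachrome tautomerase known from pigment synthesis, fell by 2.08 ± 0.36 and Spsb1, an adaptor of ubiquitin ligases, by 2.02 ± 0.21. Pde6c, a cone photoreceptor phosphodiesterase gene, rose by 2.30 ± 0.31, where a second probe read 0.15, and Pcp4l1 rose by 1.95 ± 0.33. Cell cycle genes passed in 6 of 30 cases: Ccnd1 (1.21 ± 0.20), cyclin D1, and Rrm2 (0.87 ± 0.18), a ribonucleotide reductase subunit, rose, and Cdk1 (-0.58 ± 0.11), the mitotic kinase, fell. A second Rrm2 probe read 0.14. Of all named genes 12.5% passed, 5.16% higher and 7.3% lower. Ribosomal protein genes rose in 5 of 33 cases, led by Rps15 (0.51 ± 0.12) and Rpl21 (0.40 ± 0.09), while the Rpl6 probe of largest spread fell by 1.00 ± 0.10 and 7 other Rpl6 probes read between 0.02 and 0.26. Averaged over its probes, Rpl6 stood at 0.0306.

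**Figure D2:**
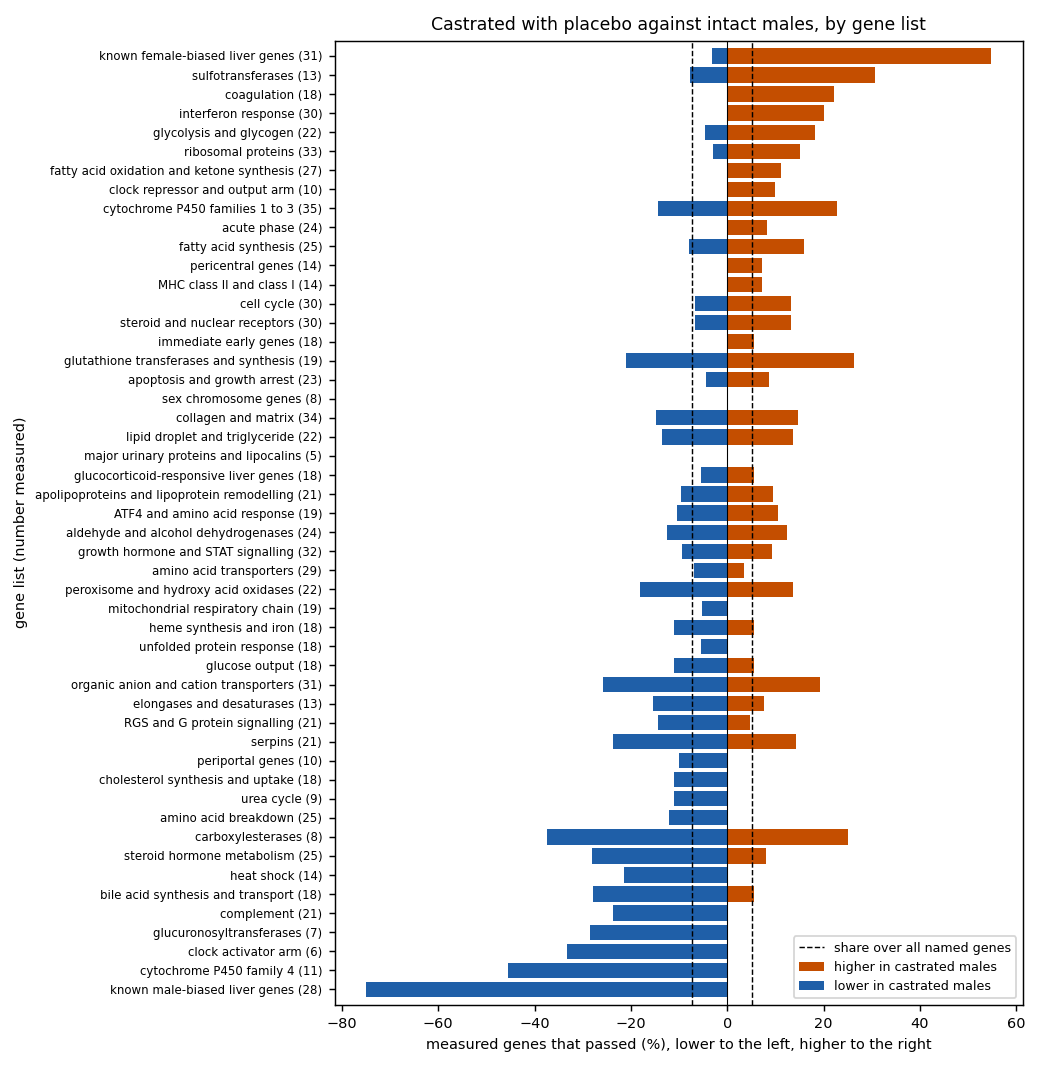
Share of the measured genes of each list with at least 5 measured, cell type lists aside (rows, with the number measured), that passed higher (orange, to the right) or lower (blue, to the left) in castrated males with placebo against intact males, in percent. Dashed lines are the shares over all 10843 named genes, 5.16% higher and 7.3% lower. Among the lists drawn, the known male-biased list, with 21 of 28 lower, and the known female-biased list, with 17 of 31 higher, reach farthest. Lists were chosen with earlier results of these data known.

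Lists of genes known to differ between the sexes had the most members past the threshold. Castrated males had 17 of 31 known female-biased liver genes higher, 1 lower and 13 that did not pass, with a median of 0.89. Of 28 known male-biased genes, 21 were lower, 0 higher and 7 did not pass, with a median of -1.22. Over all named genes 5.16% were higher and 7.3% lower, and the median was 0.02. Under each alternative fit, 10 of the 17 and 17 of the 21 kept their call. The 5 measured genes of the urinary protein and lipocalin list gave 0 calls in limma, with 1 lower at an unadjusted p under 0.05. Lists close to the background in calls included amino acid transporters, with 1 higher and 2 lower of 29, the unfolded protein response, with 1 lower of 18, the respiratory chain, with 1 lower of 19, and Kupffer cell markers, with 0 of 14 and also 0 at an unadjusted p under 0.05. At that unadjusted level in limma, 5 unfolded protein response genes were lower and 0 higher, and 6 amino acid transporters were higher and 3 lower. Over all 10843 named genes 1464 were higher and 1423 lower at that level.

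The intact males were not alike. For each of the 20 genes of largest fall, an intact male's position was placed on a scale from 0%, the mean of the 5 castrated males, to 100%, the mean of the other 4 intact males. Animal 11 lay under 75% for 9 of the 20 genes, at 10.4% for Moxd1, 11.4% for Asns and 43.6% for Cyp7b1, and 54.3% to 74.4% for Spsb1, Selenbp2, C9, Bmf, Cd248 and Omd. Animals 8, 9, 10 and 12 lay under 75% for 0 of the 20. The 100% mark of these 4 includes animal 11, so where animal 11 lay toward the castrated level their positions were raised. The genes were picked for groups that do not overlap, so no intact male could lie within the castrated range. For other genes animal 11 lay near 100%: 114% for Hsd3b5, 93.8% for Elovl3, 102% for Cyp4a12a and 106% for Nat8. For Serpina4-ps1 it was at 120%, apart from and above the other 4. Among the 20 genes of largest rise it was under 75% for 5, with Gstt3 at 19.2%, Rgs16 at 40.5% and Serpina6 at 49.1%, against 0 or 1 for each of the other intact males, while Cyp2b13 was at 86.8% and Slc22a26 at 91.1%. So animal 11 lay toward the castrated level in part of the genes and not in others. The labels give no reason, and none was tested.

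**Figure D3:**
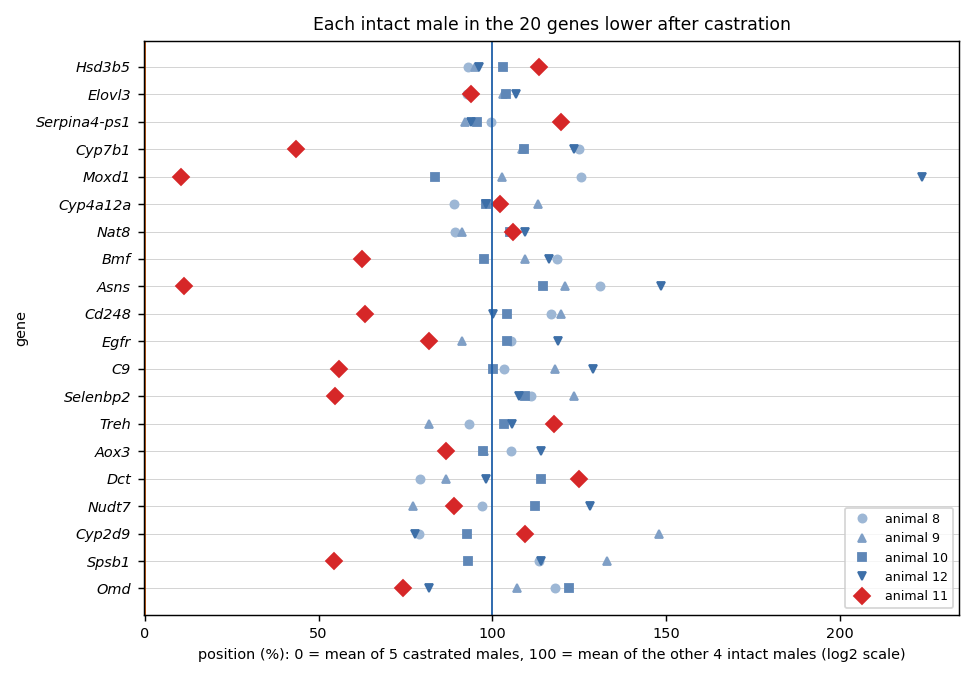
Position of each intact male (symbols; animal 11 as red diamonds) for the 20 genes of largest fall (rows), in percent on the log2 scale, where 0 is the mean of 5 castrated males and 100 the mean of the other 4 intact males. Animal 11 is at 10.4% for Moxd1 and 11.4% for Asns but at 114% for Hsd3b5.

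An index of circadian clock genes, not tested, differed in part with the groups. The index was formed from 10 repressor and output genes of the clock minus 6 genes grouped with its activators. It was -0.47, 0.04, 0.26, -0.10 and 0.42 in the castrated males, against -0.75, -0.57, -0.47, -0.14 and -0.67 in the intact males. Of the castrated males 4 were above all intact males and 1 was not. In females the index was -0.68, -0.83, -0.78, -0.63 and -0.47 in intact animals, against 0.08, 0.35, 0.16, 0.26 and -0.29 after ovariectomy with placebo. A higher index was thus seen in operated animals with a pellet in both sexes and was not particular to castration. Its cause was not tested. Of its genes, Bhlhe40 (1.02 ± 0.26) rose, and Nfil3 (-0.61 ± 0.20), a repressor grouped here with the activators, and Rora (-0.60 ± 0.17) fell. Nfil3 lost its call under 11 alternatives, Rora under 6 and Bhlhe40 under 3. With the index as a covariate, 1337 probes passed, Fmo2 and Gstt3 lost the call, at adjusted p = 0.0583 and 0.0501, and the other 38 of the 40 genes kept it; these 2 lost it under no other alternative, where their adjusted p reached at most 0.0138 and 0.00733.

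Castrated males that carried DHT or estradiol share the placebo males with the comparison above, so their levels are given side by side. Hsd3b5 averaged 0.74 ± 2.25 with DHT and -2.07 ± 1.55 with estradiol, against -4.04 ± 0.19 with placebo and 1.66 ± 0.38 in intact males (SD, n = 5 each). The wide SD with DHT came from animal 61, at -3.19, while the other 4 lay between 1.20 and 2.40. With estradiol, animal 46 lay at 0.60 and the other 4 between -3.39 and -2.36. Cyp2b13 stood at -3.28 ± 2.34 with DHT and 0.02 ± 0.53 with estradiol, against 0.58 ± 0.20 with placebo and -5.45 ± 0.46 in intact males. Animal 61 was again the one nearest the placebo level, at 0.23. Egfr was at 0.45 ± 0.65 with DHT and 0.16 ± 0.45 with estradiol, against -1.56 ± 0.20 with placebo and 0.85 ± 0.27 in intact males, and both hormones passed against placebo, at 2.00 ± 0.29 (adjusted p = 0.000163) and 1.71 ± 0.29 (adjusted p = 0.00269). Cyp17a1 was at -2.85 ± 1.11 with DHT and 0.46 ± 1.12 with estradiol, against -0.69 ± 0.35 with placebo and -2.57 ± 0.32 in intact males. DHT passed for Cyp17a1 against placebo, at -2.17 ± 0.44 (adjusted p = 0.00343), and estradiol stood at 1.15 ± 0.44 (adjusted p = 0.226). Moxd1 remained at -1.64 ± 0.24 with DHT and -2.03 ± 0.25 with estradiol, against -2.05 ± 0.34 with placebo and 1.54 ± 2.16 in intact males; neither hormone passed, at 0.40 ± 0.49 and 0.02 ± 0.49. Serpina4-ps1 passed with both hormones, at 3.48 ± 0.69 and 3.06 ± 0.69, and Cyp7b1 with estradiol, at 2.85 ± 0.68, while its DHT difference of 2.10 ± 0.68 had an adjusted p of 0.0809. Pde6c fell with both, by 1.12 with DHT and by 1.71 with estradiol.

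**Figure D4:**
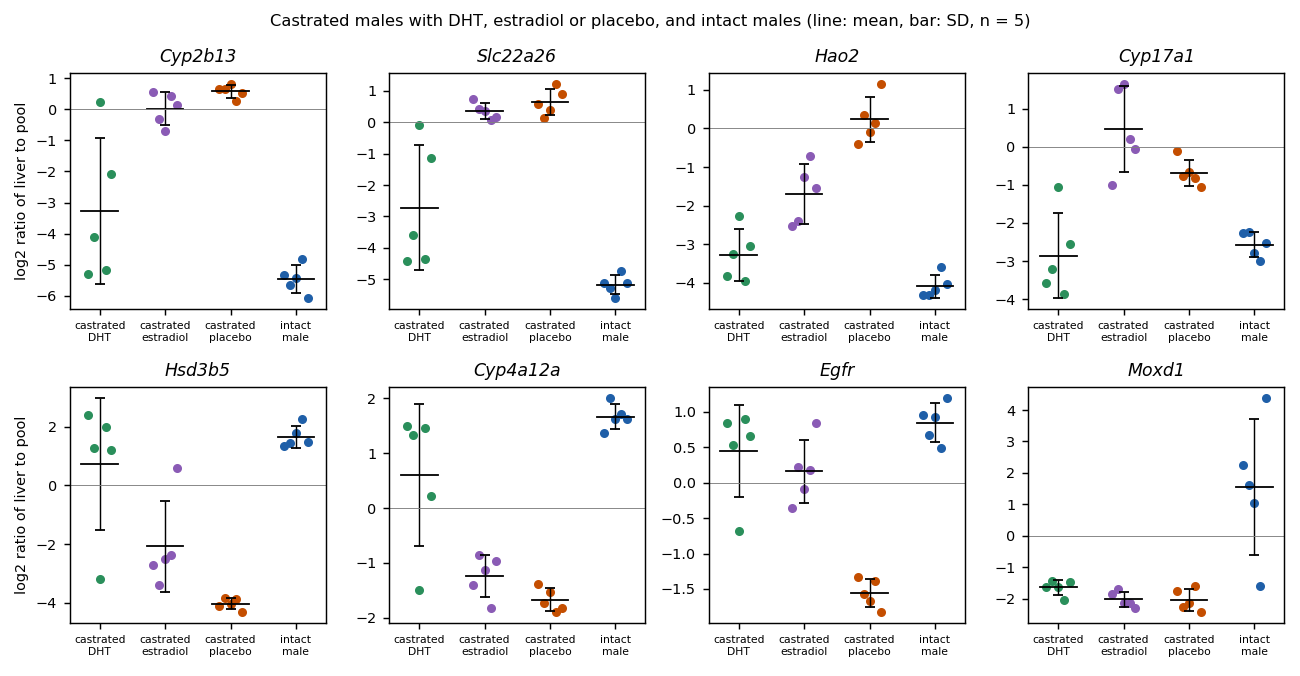
Log2 ratio of liver to pool (y axis) for 8 genes in castrated males with DHT, with estradiol and with placebo and in intact males (x axis); points are animals, lines are means and bars are SD, with 5 animals a group. For Hsd3b5 and Cyp4a12a all DHT animals but animal 61 lie nearer the intact than the placebo males, and for Moxd1 all 10 hormone-treated animals lie near the placebo level.

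Ovariectomized females offer a test in animals that the castration comparison did not use, although they share its pool and its estimate of the spread. With DHT against placebo after ovariectomy, 12 of the 20 genes of largest fall after castration were higher and 0 lower, where 0.701% of all named genes were higher, and their median was 1.33. The 12 were Hsd3b5 (3.29 ± 0.73), Serpina4-ps1 (2.78), Cyp2d9 (2.61), Nat8 (1.75), Cyp4a12a (1.68), Omd (1.66), Egfr (1.44), Cd248 (1.42), Treh (1.40), C9 (1.38), Aox3 (1.18) and Bmf (1.11). Moxd1 (-0.04 ± 0.49), Dct (-0.43 ± 0.36), Asns (0.42 ± 0.41) and Selenbp2 (0.41 ± 0.19) did not pass, and Elovl3 read 1.28 ± 0.41 (adjusted p = 0.142). Of the 20 genes of largest rise after castration, 10 were lower with DHT and 0 higher, where 0.572% of all named genes were lower, with a median of -1.23. A1bg (-4.75 ± 0.77), Hao2 (-4.17 ± 0.61), Cyp2b13 (-3.86 ± 0.72) and Sult3a1 (-3.60 ± 0.64) led these, and Rgs16 (-0.54 ± 0.47) and Abcb1a (-0.35 ± 0.28) did not pass. Estradiol against placebo after ovariectomy gave 1 of the 20 genes of largest fall as higher, Treh (1.32 ± 0.31). Of all named genes 0.47% were higher. At an unadjusted p under 0.05 in limma, 6 of these 20 were higher and 2 lower. Differences over these 20 lay between -1.21 and 2.54. Of the 20 of largest rise 1 was lower, Serpina6 (-1.48 ± 0.29), where 0.415% of all named genes were lower. At an unadjusted p under 0.05 in limma, 3 of the 20 of largest rise were lower and 1 higher.

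Removal of the gonads itself was compared between the sexes. Ovariectomy with placebo against intact females passed for 7 of 10843 named genes (0.0646%) and for 0 of these 40 in limma, of which 1 was higher at an unadjusted p under 0.05. The test of the difference, castration effect minus ovariectomy effect, passed for 540 named genes (4.98%), 206 higher (1.9%) and 334 lower (3.08%). The largest were Slc22a26 (5.84 ± 0.79), Cyp2b13 (5.69 ± 1.02) and Cyp2b9 (5.23 ± 0.86) on the positive side and Hsd3b5 (-5.74 ± 1.03), Elovl3 (-4.40 ± 0.59) and Cyp7b1 (-3.86 ± 0.96) on the negative side. A1bg, Serpina6, Gstt3 and Fmo2 were the genes among the 40 whose effects were not shown to differ between the sexes: A1bg read 3.63 after castration and 1.01 after ovariectomy, a difference of 2.62 ± 1.09 (adjusted p = 0.2), and Serpina6 2.27 and 1.16, a difference of 1.11 ± 0.41 (adjusted p = 0.132). The 40 genes were picked for a large castration difference, which also enters this test. How many of them passed it is therefore no independent result.

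**Figure D5:**
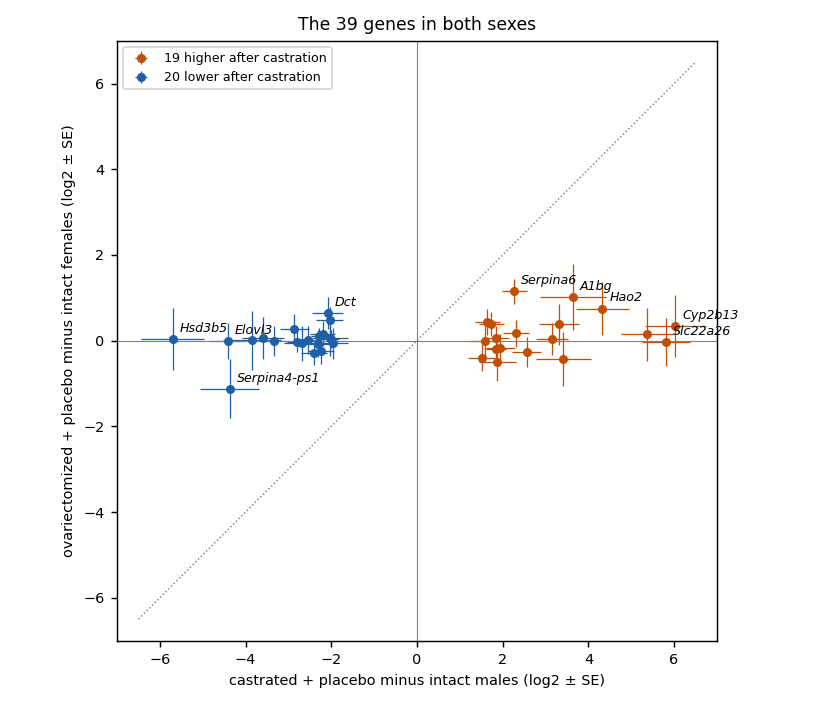
Difference between castrated males with placebo and intact males (x axis, log2 ± SE) against the difference between ovariectomized females with placebo and intact females (y axis, log2 ± SE) for 19 of the 20 genes of largest rise (orange) and the 20 of largest fall (blue) after castration; the dotted line marks equal effects. On the y axis all points lie between -1.13 and 1.16, on the x axis between -5.70 and 6.03.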

How the data were processed

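Liver RNA of 40 mice was read on 2-colour arrays, 1 per animal, with the liver in Cy5 and a liver pool in Cy3 on every array, per the labels, so no dye was swapped. The deposited values are log10 ratios of liver to pool. Neither background correction, normalization nor centring is given in the sources used here, and no batch is in the labels. The base and direction were settled from the Y-linked genes, the limit at 2 in log10 units (29 values on 16 probes lie at a limit) and the dyes. Log10 ratios were multiplied by 3.32 to give log2.

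Group means of all 8 groups were fitted with limma 3.58.1 in R 4.3.3 (lmFit and eBayes, 32 residual and 3.42 prior degrees of freedom, median residual SD 0.146), two-sided, with Benjamini-Hochberg adjustment over 23574 probes within a contrast. The fit was tested on simulated data with known changes. Of 23574 probes, 9861 were not in the platform annotation, 48 had several symbols and 999 matched no current mouse gene. The 12666 others were named, 12662 by Entrez identifier and 4 by accession, for 10843 genes, of which 1159 had more than 1 probe. The probe of largest SD over the 40 arrays stands for a gene.

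Genes named are the 20 highest and 20 lowest that passed and whose groups did not overlap, up to 6 members of a list by adjusted p, hormone receptors, sex chromosome genes, and the 10 highest and 10 lowest in the test against ovariectomy, without clone or predicted names; 1 gene of the 40 is not reported here. The comparison, its lists and its alternatives were chosen with earlier results of these data known, and contrasts after ovariectomy with DHT or estradiol were added after seeing the data. Alternatives were the groups compared alone, quantile normalization, median centring, array weights, the clock index as a covariate, only probes with an SD above the median, the mean of a gene's probes, and each animal left out. Promoters came from RefSeq tables read with Biopython 1.88.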

Additional observations from a re-analysis of the deposited data

Results flagged for a closer look

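Of 86 groups of 5 values tested, 7 held 1 animal far from the other 4, by a gap above 0.71 of the group's range, and chance gives about 5% of such groups. In the intact males animal 11 was lowest for Cyp7b1 (-0.66), Asns (-0.75) and Selenbp2 (0.54) and highest for Serpina4-ps1 (1.72). In the castrated males animal 28 was highest for Omd (0.11), animal 25 highest for Gstt3 (0.81) and animal 26 lowest for Slco1a4 (-0.46).

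The castration effect differed from the ovariectomy effect for 19 genes listed by size among those that passed the test of the difference in limma. On the negative side, castration effect minus ovariectomy effect stood at -2.63 for Asns, at -2.73 for Dct, at -2.77 for Bmf, at -3.14 for Nat8, at -3.25 for Serpina4-ps1, at -3.32 for Cyp4a12a, at -3.65 for Moxd1, at -3.86 for Cyp7b1, at -4.40 for Elovl3 and at -5.74 for Hsd3b5. The positive side held Slc22a26 at 5.84, Cyp2b13 at 5.69, Cyp2b9 at 5.23, Sult3a1 at 3.84, Hao2 at 3.58, Slc22a27 at 3.13, Rgs16 at 2.95, Cyp2c40 at 2.82 and Cyp17a1 at 2.37. Adjusted p-values for these ran from 7.48e-06 to 0.0476.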

How the results depend on the processing

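Of the 40 genes of largest change, 37 kept their call under all alternatives and 0 changed sign. Of 193 genes named for this comparison that passed, 96 kept the call under all alternatives, and the Rpl6 difference turned to 0.0306 with the mean of all probes of a gene. The castration count of 2856 probes was 1763 with the 2 groups alone in the fit, 1802 after quantile normalization, 1337 with the clock index in the model, 1876 over probes with an SD above the median, 7762 with array weights and 4754 without animals 9 and 11, and 1976 to 3687 with 1 animal left out. Of the calls 42.9% were higher, against 57.4% with array weights and 54% without animals 9 and 11. Castration against ovariectomy gave 1038 probes, 530 after quantile normalization, 3007 with array weights and 778 to 1243 with 1 animal left out. DHT after castration gave 819 probes, 260 with only its groups in the fit, 3801 with array weights, 499 with the clock index and 335 to 1115 with 1 animal left out, over 1.5 times fewer without animal 24, 27, 59, 60 or 62. Estradiol after castration gave 278, 37, 753 with array weights, and 69 to 322 with 1 animal left out, over 1.5 times fewer without animal 24, 25, 26, 45 or 46, the second value with only its groups in the fit. Why the counts moved was not tested. Under the clock model the Asns difference was -1.67 and that of Gstt3 1.01. The removal of animals 9 and 26, or of 9 and 11, was chosen after seeing the data. No paired analysis was possible because each animal number occurs in 1 group. The number of arrays limits the precision, and signal over background was unknown.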

Other observations

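Of the gene groups not described above, glycolysis and glycogen genes rose in 4 of 22 cases and fell in 1, with Aldoa at 0.38 ± 0.08 (5 other probes between -0.19 and 0.21), Gckr, the inhibitor of glucokinase, at 0.36 ± 0.10 and Pgm2 at 0.23 ± 0.07, and Pfkfb3, a regulator of glycolytic flux, lower at -0.72 ± 0.21, and 0 of the 5 kept the call under every alternative. Glucose output genes gave Slc37a4, the glucose-6-phosphate carrier, at 0.70 ± 0.15, and G6pc, the phosphatase, at -1.20 ± 0.30, with overlapping groups for the second. Of 14 heat shock genes 3 were lower and 0 higher: Hspa1a by 1.10 ± 0.25, where another probe read -0.17, Hspb1 by 0.74 ± 0.19 and Hsph1 by 0.61 ± 0.20. Hspa1a alone of these kept its call under every alternative. The share higher over all named genes was 5.16%. Amino acid breakdown genes, with 3 lower of 25, were near the 7.3% lower over all named genes, and 1 of the 3 kept its call under every alternative.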
